A study of Mus musculus with 17 samples.

Results

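The transcriptional response to CpG-A in plasmacytoid dendritic cells that had also received LIF was followed here, by setting the 3 arrays labelled CpG-A + LIF against the 3 labelled LIF. These are 6 of the 17 arrays of the series. The genes compared were all probe sets of the deposited table that carried exactly 1 gene symbol, 21354 of 24680 probe sets, which represented 19751 genes. The choice of arrays and probe sets used no measured value. The series holds total RNA from C57BL/6 mouse bone marrow cells, enriched by negative magnetic selection and sorted by FACS as CD11c-intermediate, B220+ and SiglecH+. The LIF group received LIF at 10 ng/ml for 20 to 24 h. The CpG-A + LIF group received the same LIF, and from 1 h after it also CpG-A (oligonucleotide 2216) at 6 µg/ml for 19 to 23 h. These times are those of the treatment protocol. The design text of the series instead gives LIF for 1 or 24 h and a slightly different span for CpG, and which holds could not be settled. Other groups serve for comparison. They are cells in medium (2 arrays), CpG-A without LIF (3 arrays) and CpG-B (oligonucleotide 1826) at 6 µg/ml with LIF (3 arrays). The labels do not say whether replicates came from separate mice or cultures, so p-values measure only the spread between these arrays, which may be technical.

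Plasmacytoid dendritic cells sense CpG DNA with TLR9 in endosomes, and through MyD88, IRF7 and NF-kB they make type I interferon, cytokines and chemokines. CpG-A forms aggregates that linger in early endosomes and is known for strong interferon induction, whereas CpG-B reaches late endosomes and is known for driving maturation. LIF binds LIFR together with gp130 (Il6st), activates STAT3, and induces SOCS3, a feedback inhibitor of that pathway.

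The deposited values are linear RMA intensities (RMA corrects background, normalizes arrays and summarises probes) whose decimal mark has been lost, so each is known only up to a power of 10. On the log2 scale a value is thus known up to whole multiples of 3.32. Differences are given as the nearest reading, the log2 difference between -1.66 and 1.66, which is right for true changes under 3.16-fold and appears as a smaller or opposite change beyond that. A gene is said to read higher or lower where its reading was called (limma, Benjamini-Hochberg adjusted p under 0.05 over all genes) and at most 1.11 in size, which is 2.15-fold. Its other reading is then an opposite change of at least 4.64-fold, which the table cannot exclude. Larger called readings are given in both directions and are termed open. A difference of about 10-fold reads near 0, and a gene without a call may still have changed. Expression levels cannot be recovered, and the sorted cell type could not be checked against the levels of its markers. No array stood apart. The median absolute deviation of an array from its group mean was 0.087 to 0.116, and the median standard deviation within groups was 0.19. Array values below are log2 readings relative to the mean of the LIF arrays, each placed nearest to its own group's mean.

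CpG-A changed 3430 of 19751 genes in LIF-treated cells, 17.4% of those tested. Of these, 1230 (6.23%) read higher, 1440 (7.29%) read lower and 760 (3.85%) were open in direction. These shares of all genes are the background for the list counts of this comparison below. Increases included proteasome subunits, chaperones of the endoplasmic reticulum and parts of the secretory pathway. Decreases included regulators of the plasmacytoid lineage, mitotic genes and several transporters and enzymes. The median reading over all genes was 0.01, and the median SE of a difference was 0.15, so that the 95% interval of a typical gene reached 0.32 to either side. The arrays of the groups did not overlap for 5814 genes (29.4%). Leaving out 1 array at a time gave 2824 to 3115 calls. Because RNA came from whole populations, fewer cells of a type and less RNA per cell cannot be told apart.

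**Figure D1:**
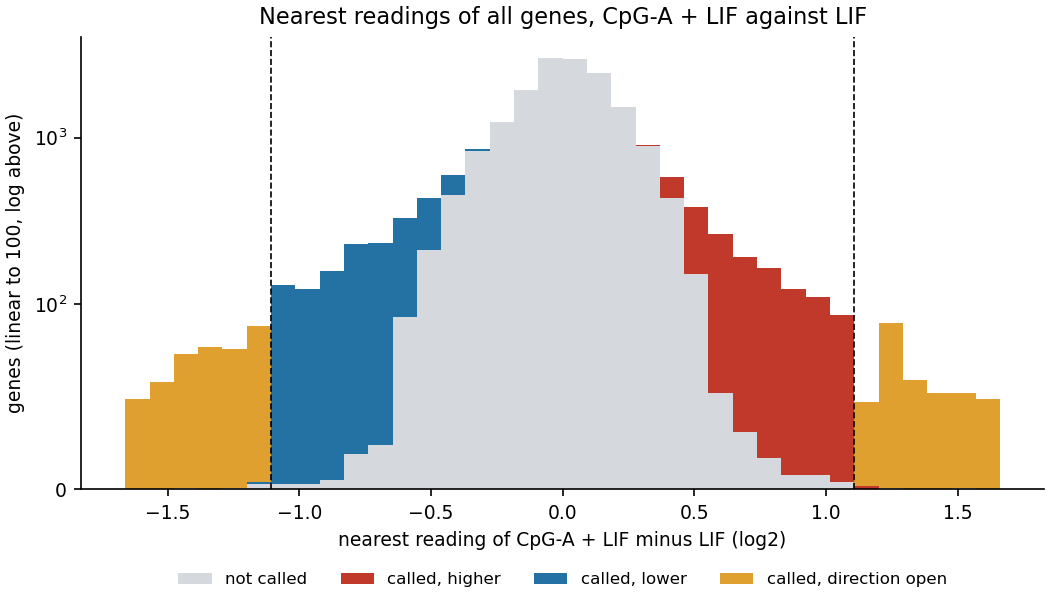
Nearest readings (log2, horizontal axis) of all 19751 genes for CpG-A + LIF minus LIF, with the number of genes on an axis that is linear to 100 and logarithmic above. Colours separate genes not called, called higher (1230), called lower (1440) and called with open direction (760), and the dashed lines mark 1.11 in either direction, beyond which the direction was not read.

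Proteasome subunits were called almost as a block. Of the 25 listed subunits of the constitutive proteasome, the complex that degrades ubiquitin-tagged proteins, 23 were called, 21 of them higher and 2 open, against 17.4% called and 6.23% higher over all genes. All 25 readings lay above 0, with a median of 0.73 against 0.01 over all genes, and leaving out single arrays or changing a setting gave 21 to 23 calls. Psmd2, a scaffold subunit of the regulatory particle (probe set 10362392), lay at -0.20, 0.09 and 0.12 in the LIF arrays and at 0.96, 1.17 and 1.11 in the CpG-A + LIF arrays. The groups did not overlap, and the gene read 1.08 ± 0.13 higher (SE, n = 3 and 3, 2.11-fold, adjusted p = 7.72e-06). Psmd12, another subunit of that particle, lay at -0.21, -0.05 and 0.25 with LIF alone and at 0.95, 1.13 and 0.98 with CpG-A, and read 1.02 ± 0.13 higher. The core-particle subunit Psmb7 read 0.89 ± 0.13 higher and the catalytic subunit Psmb5 read 0.74 ± 0.14 higher. Psmc6, an ATPase of the particle's base, and Psmd1, its other large scaffold, were open at 1.21 ± 0.12 or -2.11 and at 1.13 ± 0.11 or -2.19. The antioxidant response element, searched as TGACNNNGC within 250 bases before the start and on either strand, occurred in the RefSeq promoters of 4 of the 21 members with an entry (19.0%), against 11.5% of 27025 mouse genes. These 4 are Psmb5, Psmb6, Psmc6 and Psmd12.

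Nploc4 and Ufd1, the partner proteins with which the ATPase p97 extracts ubiquitin-tagged proteins, moved alongside. Nploc4 lay at 0.11, 0.04 and -0.15 in the LIF arrays and at 1.08, 1.07 and 1.02 in the CpG-A + LIF arrays, and read 1.06 ± 0.11 higher (adjusted p = 4.19e-06). Ufd1 lay at -0.02, -0.08 and 0.10 and at 0.84, 1.07 and 0.96, and read 0.95 ± 0.11 higher (adjusted p = 7.30e-06). For both genes every CpG-A + LIF array was above every LIF array.

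Genes of the unfolded protein response and of secretion followed the same course. Of 24 measured members 18 were called, 12 of them higher, 1 lower and 5 open. The readings lay above 0 for 23 members, and the median was 0.70. The promoters of 5 of the 20 members with a RefSeq entry held the endoplasmic reticulum stress element, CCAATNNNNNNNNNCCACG, within 250 bases before the start and on either strand, against 0.13% of 27025 mouse genes. Of the 15 called members with an entry 4 held it, namely Hspa5, Pdia6, Creld2 and Dnajc3. Hsp90b1 also held it and was not called, so the element was not particular to called members. The windows of the 4 called genes are shown because they belong to members that read higher or, for Creld2, open (RefSeq, GRCm38.p6, gene's own strand, element in capitals).
Hspa5 (chr2:34771989-34772079, plus strand): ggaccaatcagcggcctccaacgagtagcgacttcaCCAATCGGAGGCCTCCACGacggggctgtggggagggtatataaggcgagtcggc
Pdia6 (chr12:17266455-17266545, plus strand): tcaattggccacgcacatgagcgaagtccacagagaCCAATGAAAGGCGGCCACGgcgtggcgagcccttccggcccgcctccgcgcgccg
Creld2 (chr15:88819484-88819574, plus strand): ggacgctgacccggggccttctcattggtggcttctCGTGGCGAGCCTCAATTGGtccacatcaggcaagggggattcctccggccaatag
Dnajc3 (chr14:118937791-118937881, plus strand): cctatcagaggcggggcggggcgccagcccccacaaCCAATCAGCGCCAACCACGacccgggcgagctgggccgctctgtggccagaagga
The Creld2 promoter carries the element on the opposite strand, so its capitals show the reverse complement. A match of letters describes the sequence and is no evidence of a factor's binding here.

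Hspa5, the chaperone BiP that binds unfolded proteins in the endoplasmic reticulum (probe set 10471586), lay at 0.01, 0.08 and -0.09 in the LIF arrays and at 1.01, 0.87 and 1.00 in the CpG-A + LIF arrays. It read 0.96 ± 0.11 higher (1.95-fold, adjusted p = 4.47e-06). Among the other genes with the element, the protein disulfide isomerase Pdia6 read 0.81 ± 0.12 higher and the BiP partner Dnajc3 read 0.64 ± 0.12 higher. Creld2, a secreted stress factor, was open at 1.41 ± 0.15 or -1.91. The stress transcription factor Atf4 read 0.97 ± 0.11 higher, the secreted stress protein Manf 0.75 ± 0.10 higher and Edem1, which directs misfolded glycoproteins to disposal, 1.06 ± 0.14 higher. Ern1, the stress sensor that splices Xbp1, was the member that read lower, at -0.66 ± 0.13 (adjusted p = 0.00144). Outside the list, the oligosaccharyltransferase subunit Ostc read 1.07 ± 0.12 higher and the cargo receptor Surf4 read 1.08 ± 0.13 higher. Srgn, the proteoglycan core of secretory granules, read 1.06 ± 0.11 higher, with LIF arrays at -0.02, -0.01 and 0.02 and CpG-A + LIF arrays at 1.12, 1.08 and 0.98.

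**Figure D2:**
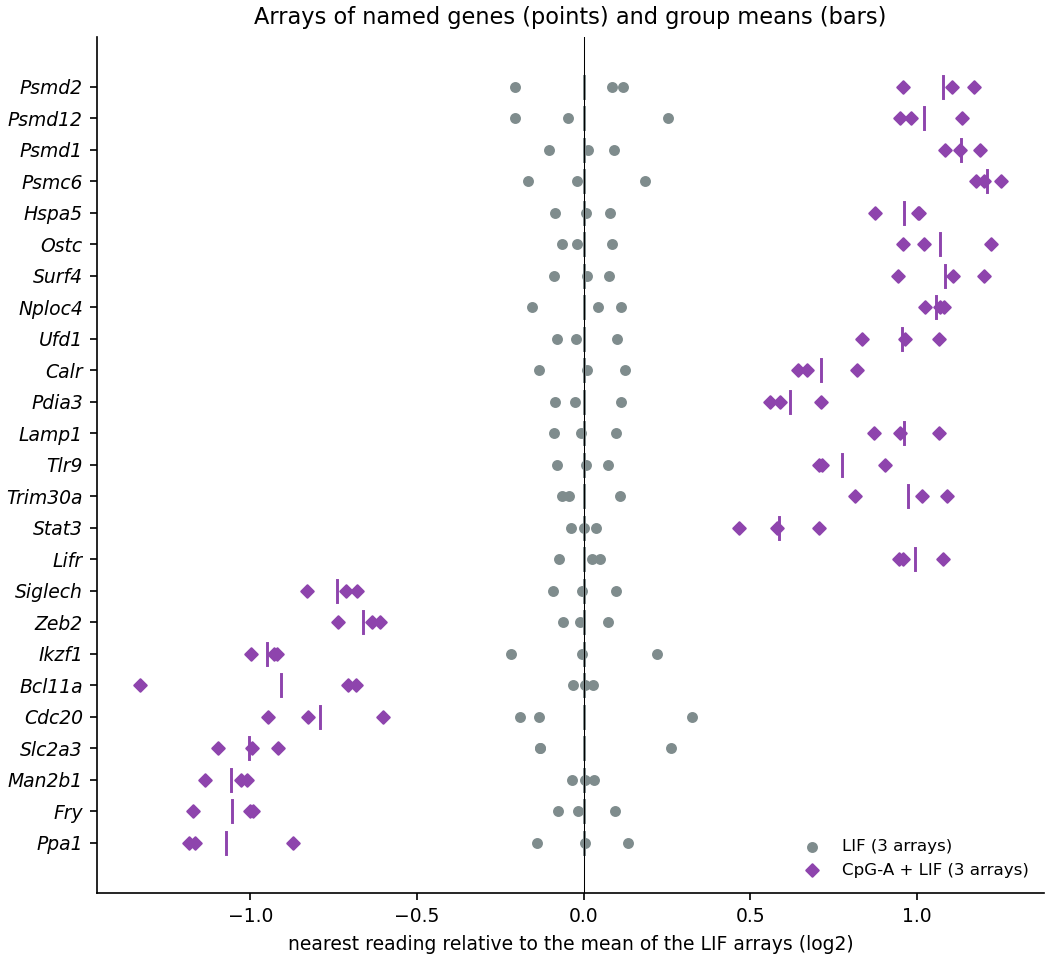
Nearest reading of each array relative to the mean of the LIF arrays (log2, horizontal axis) for named genes, with LIF arrays as circles, CpG-A + LIF arrays as diamonds and group means as bars. For Psmd2 the CpG-A + LIF arrays lie at 0.96 to 1.17, above the LIF arrays, and for Siglech they lie at -0.83 to -0.68, below them. Psmd1 and Psmc6 are drawn at their nearest reading although their direction is open.

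MHC class I genes, whose products load peptides made by the proteasome, showed 11 calls among 15 measured members, 8 higher, 0 lower and 3 open, and a median reading of 0.62. Calr, a chaperone of the peptide loading complex, lay at 0.01, -0.13 and 0.12 in the LIF arrays and at 0.82, 0.67 and 0.64 in the CpG-A + LIF arrays, without overlap, and read 0.71 ± 0.12 higher (adjusted p = 1.98e-04). Pdia3, its partner in that complex, read 0.62 ± 0.10 higher. The peptide transporter subunit Tap2 read 0.64 ± 0.14 higher, and the interferon-inducible proteasome subunit Psmb9 read 0.53 ± 0.13 higher. The other transporter subunit, Tap1, lay just past the limit and was open at 1.14 ± 0.13 or -2.18. MHC class II genes, which present proteins taken up from outside, had 5 of 12 called, 3 of them lower and 2 open, with a median of -0.55. H2-Ob, a modulator of peptide exchange, read -1.04 ± 0.21, and Ifi30, a lysosomal thiol reductase, read -0.75 ± 0.21. H2-DMa, the peptide exchange factor, was open at -1.44 ± 0.15 or 1.88. Without LIF replicate 1, or without CpG-A + LIF replicate 1, 3 class II members were called in place of 5.

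Lysosomal genes split in direction. Of 20 measured hydrolases, membrane proteins and proton pump subunits, 10 were called, 4 of them higher, 4 lower and 2 open. Lamp1, a major glycoprotein of the lysosomal membrane, lay at -0.09, 0.10 and -0.01 in the LIF arrays and at 1.06, 0.87 and 0.95 in the CpG-A + LIF arrays, and read 0.96 ± 0.11 higher (adjusted p = 4.43e-06). The proton pump subunit Atp6v1h read 1.10 ± 0.13 higher. Man2b1, the acid alpha-mannosidase, lay at 0.00, -0.04 and 0.03 and at -1.14, -1.03 and -1.01, and read -1.06 ± 0.13 (adjusted p = 1.02e-05). The acid ceramidase Asah1 read -0.88 ± 0.14. For Lamp1 and Man2b1 the arrays of the groups did not overlap.

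**Figure D3:**
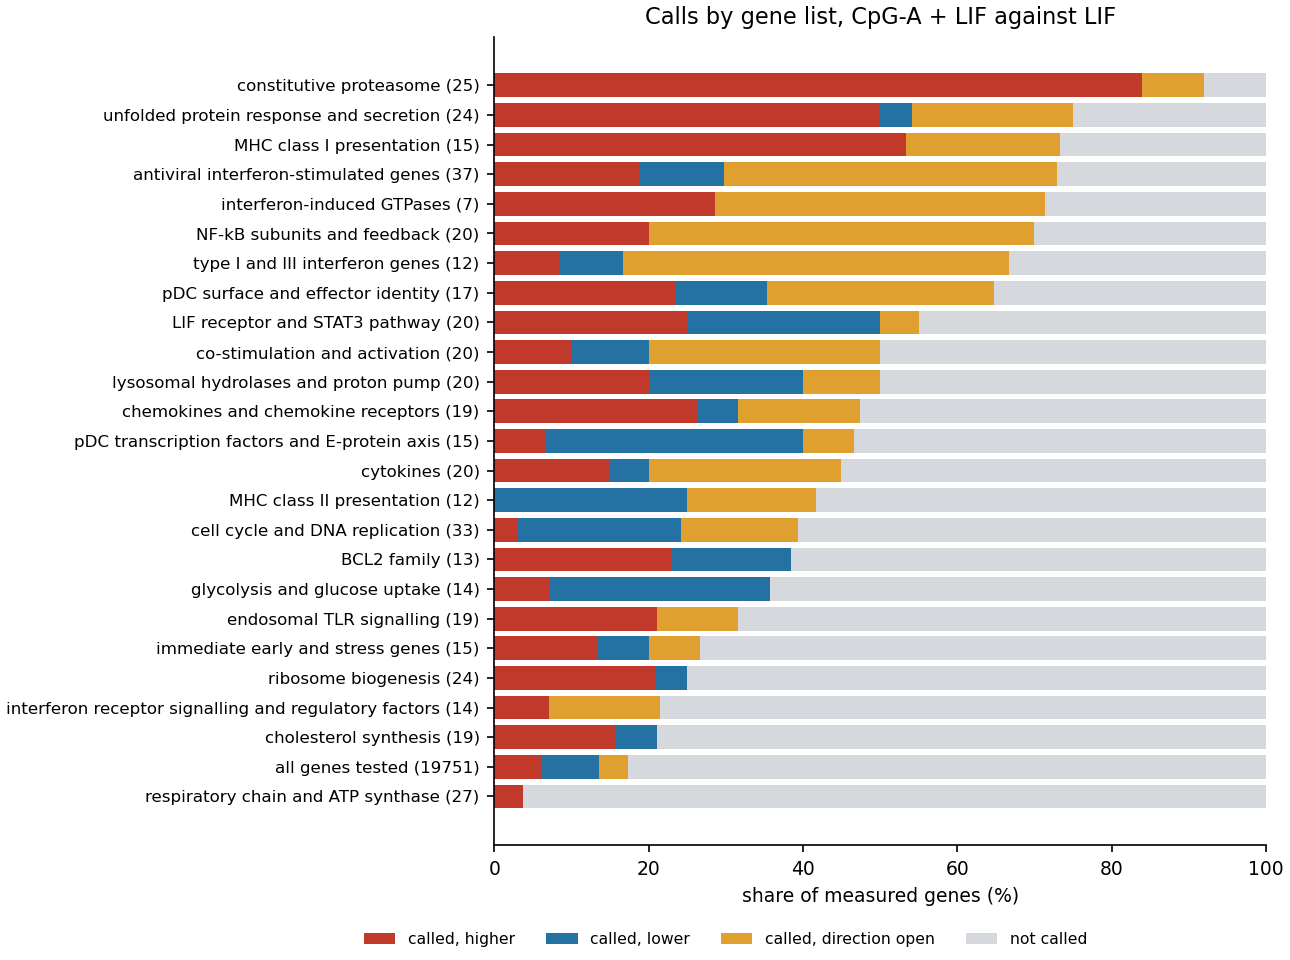
Share of the measured genes of each pathway list and of the immediate early and stress genes (horizontal axis, %) that were called higher, lower or with open direction, or were not called, in CpG-A + LIF against LIF, with the number of measured genes in parentheses and all genes tested as a bar of its own. Marker lists of other cell types are not drawn, and among the lists drawn the constitutive proteasome has the highest called share (23 of 25) and the respiratory chain and ATP synthase the lowest (1 of 27).

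Antiviral interferon-stimulated genes changed widely, but the direction of most could not be read. Of 37 measured members 27 were called, and only 7 read higher and 4 lower, while 16 were open. The median reading was 0.00 and the median size 1.02, against a median size of 0.17 over all genes. The interferon-stimulated response element, searched as GAAANNGAAA within 250 bases before the start and on either strand, occurred in the promoters of 8 of the 27 members with an entry (29.6%), against 3.46% of 27025 mouse genes. Of the 21 called members with an entry 6 held it. Oas3 and Ifitm2 also held it and were not called, so the element was not particular to called members. The 6 called genes with it are shown because they cover each kind of called member, those reading higher (Ifit3, Bst2, Trim30a), lower (Oas1a) and open (Ifit1, Rsad2). The windows are on the gene's own strand (RefSeq, GRCm38.p6), with the element, or its reverse complement TTTCNNTTTC, in capitals.
Ifit1 (chr19:34640749-34640849, plus strand): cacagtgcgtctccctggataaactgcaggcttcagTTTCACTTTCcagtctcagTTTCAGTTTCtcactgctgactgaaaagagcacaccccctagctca
Ifit3 (chr19:34583337-34583452, plus strand): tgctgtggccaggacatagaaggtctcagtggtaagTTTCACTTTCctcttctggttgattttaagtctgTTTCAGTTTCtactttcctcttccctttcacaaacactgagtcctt
Rsad2 (chr12:26456527-26456608, minus strand): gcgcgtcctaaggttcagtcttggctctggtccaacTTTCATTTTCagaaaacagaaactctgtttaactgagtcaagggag
Bst2 (chr8:71537551-71537638, minus strand): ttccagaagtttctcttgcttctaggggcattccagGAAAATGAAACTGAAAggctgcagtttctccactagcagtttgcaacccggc
Trim30a (chr7:104465194-104465265, minus strand): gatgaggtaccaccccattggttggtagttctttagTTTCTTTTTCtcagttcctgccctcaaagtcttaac
Oas1a (chr5:120907526-120907581, minus strand): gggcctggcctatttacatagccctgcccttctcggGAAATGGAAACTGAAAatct
Ifit1 and Ifit3 each carry 2 copies on the opposite strand, and the 2 copies before Bst2 and before Oas1a overlap.

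Trim30a, an interferon-induced ubiquitin ligase that dampens TLR signalling, lay at 0.11, -0.04 and -0.06 in the LIF arrays and at 1.09, 0.81 and 1.02 in the CpG-A + LIF arrays. It read 0.97 ± 0.11 higher (adjusted p = 5.33e-06), and no arrays overlapped. Ifit3, a translation-blocking effector, read 1.02 ± 0.20 higher, and the virion tether Bst2 read 0.75 ± 0.15 higher. Ifit1, a sensor of viral RNA caps, was open at 1.44 ± 0.16 or -1.89, and Rsad2, the antiviral enzyme viperin, at 1.30 ± 0.24 or -2.02. The ubiquitin ligase partner Dtx3l was open at 1.54 ± 0.13 or -1.78, and Ifi35, an interferon-induced protein, at -1.60 ± 0.14 or 1.72. On a circle of 3.32, readings near 1.66 and near -1.66 lie next to each other. The nearest reading of Oas1a, an RNA-sensing synthetase, was -1.02 ± 0.18, and its other reading is 2.30.

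Of 7 measured interferon-induced GTPases, which attack intracellular pathogens, 5 were called, and 3 without CpG-A + LIF replicate 1 or 2. Irgm1 was open at -1.36 ± 0.13 or 1.96 and Gbp7 at 1.38 ± 0.23 or -1.94. Of the interferon receptor chain and its regulatory factors, 3 of 14 measured members were called, near the 17.4% called over all genes. Without LIF replicate 2, 6 were called. Irf9, the DNA-binding part of the ISGF3 complex, lay at 0.13, -0.18 and 0.04 with LIF alone and at 0.97, 0.50 and 0.81 with CpG-A, and read 0.76 ± 0.16 higher. Its partner Stat2 was open at 1.48 ± 0.13 or -1.84. Irf7, the master regulator of type I interferon genes, was not called at -0.26 ± 0.19 (adjusted p = 0.451). Its LIF arrays spread from -0.60 to 0.33, and without LIF replicate 2, the lowest of them, it was called at -0.56 (adjusted p = 0.0119).

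Interferon genes themselves gave unstable readings. Among 12 measured genes for type I and type III interferons, 8 passed the threshold, 1 higher, 1 lower and 6 open, with 4 called when CpG-A + LIF replicate 3 was left out. The Ifna genes among them are close copies of each other, whose probes can share signal. Ifnb1, interferon beta, lay at -0.19, 0.22 and -0.03 in the LIF arrays and at -0.92, -2.02 and -1.11 in the CpG-A + LIF arrays. It was called at -1.35 ± 0.23 or 1.97 (adjusted p = 3.85e-04), and the groups did not overlap. Ifna4 spread from -2.52 to -0.73 in the CpG-A + LIF arrays and was called at -1.50 ± 0.32 or 1.82 (adjusted p = 0.0021). Without CpG-A + LIF replicate 3 its reading was 0.04 in size (adjusted p = 0.969), and with its arrays placed on the circle at the widest gap it was 0.39 (adjusted p = 0.56).

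The receptors for CpG DNA and for LIF both read higher. Tlr9, the receptor for CpG DNA (probe set 10588479), lay at 0.01, 0.07 and -0.08 in the LIF arrays and at 0.91, 0.71 and 0.71 in the CpG-A + LIF arrays, without overlap. It read 0.77 ± 0.11 higher (1.71-fold, adjusted p = 7.19e-05). Of 19 measured genes of endosomal TLR signalling 6 were called, 4 of them higher and 2 open, against 17.4% called over all genes. Tlr7, the single-stranded RNA receptor, read 0.69 ± 0.14 higher and the TLR chaperone Cnpy3 read 0.63 ± 0.11 higher. Ap3d1, a subunit of the adaptor complex that routes TLR9, was open at 1.39 ± 0.14 or -1.93.

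Of 20 genes of the LIF receptor and STAT3 pathway 11 were called, 5 of them higher, 5 lower and 1 open. Lifr, the ligand-binding chain of the LIF receptor, lay at -0.07, 0.05 and 0.02 in the LIF arrays and at 0.96, 0.95 and 1.08 in the CpG-A + LIF arrays. It read 0.99 ± 0.11 higher (1.99-fold, adjusted p = 5.54e-06). Il6st, the shared signalling chain gp130, lay at -1.26, -1.46 and -1.36 in the CpG-A + LIF arrays against -0.13 to 0.16 with LIF alone, and was open at -1.36 ± 0.13 or 1.96. Stat3, the transcription factor of the pathway, lay at -0.04, 0.00 and 0.04 and at 0.58, 0.47 and 0.71, and read 0.58 ± 0.11 higher (adjusted p = 6.31e-04). Socs3, the feedback inhibitor, was not called at 0.29 ± 0.16 (adjusted p = 0.29). The growth regulator Myc read -1.02 ± 0.18 and the interleukin receptor chains Il6ra and Il4ra read -0.75 ± 0.16 and -0.76 ± 0.14.

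NF-kB subunits and feedback genes had 14 of 20 measured members called, 4 of them higher and 10 open. Nfkb2, the precursor of the p52 subunit, lay at -1.64, -1.64 and -1.69 in the CpG-A + LIF arrays and between -0.03 and 0.05 in the LIF arrays. With a reading of -1.66 ± 0.12 or 1.66 it sits at the border where both directions are equally near (3.16-fold either way, adjusted p = 2.81e-07). The inhibitor Nfkbia was open at -1.56 ± 0.16 or 1.77, and the subunit Relb at 1.27 ± 0.16 or -2.05. Ikbke, a kinase upstream of IRF3 and NF-kB, read 0.80 ± 0.12 higher and the subunit Rel read 0.49 ± 0.13 higher.

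Chemokines and receptors had 9 of 19 measured members called, 5 higher, 1 lower and 3 open, against 17.4% called over all genes. Cxcl10, an interferon-induced ligand of CXCR3, lay at 0.32, -0.33 and 0.02 in the LIF arrays and at 1.41, 0.77 and 1.06 in the CpG-A + LIF arrays, and read 1.08 ± 0.20 higher (adjusted p = 6.99e-04). Ccl3, an inflammatory chemokine, read 1.10 ± 0.19 higher, and the bone marrow retention receptor Cxcr4 read -0.66 ± 0.19. Ccr7, which guides mature cells to lymph nodes, was not called at -0.25 ± 0.18 (adjusted p = 0.438). Of 20 cytokine genes 9 were called, 3 higher, 1 lower and 5 open, against the same 17.4%. Il15 read 1.09 ± 0.23 higher. Tnf lay at -1.34, -1.44 and -1.35 with CpG-A and was open at -1.38 ± 0.18 or 1.95. Il6 was not called at 0.54 ± 0.26 (adjusted p = 0.184).

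Co-stimulatory and activation genes had 10 of 20 called, 2 higher, 2 lower and 6 open, against 17.4% called over all genes. Cd80, a ligand of CD28, read 1.08 ± 0.25 higher, and Cd86, the other such ligand, was open at -1.50 ± 0.21 or 1.82. Slamf7, a surface receptor of activated leukocytes, was open at -1.62 ± 0.15 or 1.70. Cd40, the receptor for T cell help, was not called at 0.12 ± 0.17 (adjusted p = 0.749), with LIF arrays at 0.11, -0.12 and 0.02 and CpG-A + LIF arrays at 0.23, -0.17 and 0.28. The arrays of Cd40 overlapped.

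Lineage regulators of plasmacytoid dendritic cells leaned lower. Of 15 measured transcription factors of the lineage and its E-protein axis 7 were called, 1 higher, 5 lower and 1 open. The median reading was -0.30. Zeb2, a repressor needed for the lineage, lay at -0.01, 0.07 and -0.06 in the LIF arrays and at -0.64, -0.74 and -0.61 in the CpG-A + LIF arrays. It read -0.66 ± 0.11 (1.58-fold lower, adjusted p = 2.57e-04), and the groups did not overlap. Ikzf1, the lymphoid factor Ikaros, read -0.95 ± 0.15. Bcl11a, an activator of the lineage programme, read -0.91 ± 0.15 and the corepressor Cbfa2t3 read -0.91 ± 0.16. Tcf4 (E2-2), the factor that specifies the lineage, was not called at -0.30 ± 0.11 (adjusted p = 0.083). Spib, a partner of Tcf4, read 0.50 ± 0.15 higher (adjusted p = 0.0235). Its call was lost without LIF replicate 1 (0.44, adjusted p = 0.0929), LIF replicate 3 (0.47, adjusted p = 0.0741) or CpG-A + LIF replicate 1 (0.38, adjusted p = 0.131), and in a fit on these 6 arrays alone (adjusted p = 0.0538).

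Surface and effector genes of the lineage had 11 of 17 measured members called, 4 higher, 2 lower and 5 open. Siglech, the surface lectin that was part of the sorting gate (probe set 10553559), lay at -0.00, 0.10 and -0.09 in the LIF arrays and at -0.68, -0.83 and -0.71 in the CpG-A + LIF arrays. It read -0.74 ± 0.13 (adjusted p = 4.63e-04). Lag3, an inhibitory receptor on these cells, read 0.95 ± 0.13 higher, and Ly6d, a marker of their lymphoid precursors, read 0.67 ± 0.11 higher. Flt3, the receptor of the growth factor that maintains dendritic cells, was open at 1.33 ± 0.15 or -1.99.

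Markers of other cells that a bone marrow sort could hold were checked as whole lists, beside 17.4% called over all genes. Of 12 measured B cell markers 5 were called, with Cd79b at -0.89 ± 0.17, Cd22 at -0.80 ± 0.23, Blk at -0.71 ± 0.19 and Fcer2a at -0.49 ± 0.16 reading lower and Igll1 at 0.64 ± 0.20 reading higher. Without 1 array, 2 or 3 of them were called, and 2 when either LIF replicate 3 or CpG-A + LIF replicate 3 was left out. Of 14 monocyte and macrophage markers 6 were called, 2 lower and 4 open, and of 10 conventional dendritic cell markers 3 were called. Calls numbered 2 of 11 for neutrophils, 2 of 8 for NK cells, 2 of 6 for plasma cells, 1 of 7 for mast cells and basophils, and 0 of 8 for T cells and 0 of 4 for erythroid cells. The counts for neutrophils and for mast cells and basophils lie near the share over all genes. Leaving out single arrays moved these small lists by 1 call: to 1 for neutrophils (without LIF replicate 1 or 3 or CpG-A + LIF replicate 3), to 1 for NK cells (without LIF replicate 1 or 3 or CpG-A + LIF replicate 2 or 3), to 0 for mast cells and basophils (without any LIF replicate or CpG-A + LIF replicate 2), to 1 for T cells (without LIF replicate 2 or CpG-A + LIF replicate 1) and to 1 for erythroid cells (without CpG-A + LIF replicate 2). Summed marker levels cannot be formed without the decimal marks, and the part of other cells in the lower readings of lineage genes was not tested.

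Most cell cycle genes that could be read were lower. Of 33 measured members 13 were called, 1 higher, 7 lower and 5 open, against 17.4% called and 7.29% lower over all genes. The median reading was -0.12. Cdc20, which activates the anaphase-promoting complex, lay at -0.19, 0.33 and -0.13 in the LIF arrays and at -0.95, -0.60 and -0.83 in the CpG-A + LIF arrays, and read -0.79 ± 0.13 (adjusted p = 3.04e-04). The mitotic kinase Plk1 read -0.95 ± 0.20, the spindle motor Kif11 -0.92 ± 0.20 and the S-phase kinase Cdk2 -0.70 ± 0.14. The cyclin Ccnd2 read 0.60 ± 0.20 higher. Cdkn1b, the inhibitor p27, was open at -1.21 ± 0.13 or 2.11. Pttg1, the separase inhibitor securin, was open at 1.64 ± 0.12 or -1.68 (adjusted p = 2.81e-07).

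In the BCL2 family, which sets the threshold of apoptosis, 5 of 13 measured members were called, 3 higher and 2 lower. Over all genes 17.4% were called. Without CpG-A + LIF replicate 1, 3 members were called. The survival protein Bcl2l1 (BCL-XL) lay at 1.41, 0.74 and 0.85 with CpG-A against -0.21 to 0.31 with LIF alone and read 1.00 ± 0.23 higher (adjusted p = 0.0046). The death-promoting members split in direction. Bad and Bmf read -0.65 ± 0.14 and -0.76 ± 0.18, whereas Bik and Bbc3 read higher, at 0.82 and 0.55. The call of Bbc3 was lost without LIF replicate 1 or CpG-A + LIF replicate 1, and in a fit on the arrays of these groups alone.

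Metabolic lists differed in their share of calls, which was 17.4% over all genes. Of 27 measured respiratory chain and ATP synthase genes 1 was called, the electron carrier Cycs at 0.72 ± 0.17, and 2 were called without LIF replicate 2 or without CpG-A + LIF replicate 3. Of 19 cholesterol synthesis genes 4 were called, with 2 when LIF replicate 1 or 3 was left out and 8 without LIF replicate 2. Fdps, the farnesyl diphosphate synthase, read 0.87 ± 0.17 higher. Of 14 genes of glucose uptake and glycolysis 5 were called, 1 higher and 4 lower, and 3 without LIF replicate 3 or without CpG-A + LIF replicate 1 or 3. Slc2a3, the glucose transporter GLUT3, lay at -0.13, 0.26 and -0.13 in the LIF arrays and between -1.10 and -0.92 in the CpG-A + LIF arrays, and fell by 1.00 ± 0.15 (adjusted p = 7.88e-05). Of 15 immediate early and stress genes, which also respond to handling of cells, 4 were called.

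The decreases with the smallest p came from genes of varied function. Fry, a large protein that works with NDR kinases, lay at -0.02, -0.08 and 0.09 in the LIF arrays and between -1.17 and -0.99 in the CpG-A + LIF arrays, and read -1.05 ± 0.11 (adjusted p = 4.03e-06). Tecr, the last enzyme of very long chain fatty acid elongation, read -1.07 ± 0.12 and Ppa1, the cytosolic pyrophosphatase, read -1.07 ± 0.13. Inpp5k, a phosphoinositide phosphatase, read -0.97 ± 0.11, and Esyt1, a tether between endoplasmic reticulum and plasma membrane, read -1.03 ± 0.12. The kinase Hipk2 read -1.05 ± 0.13 and the scaffold Iqgap2 read -1.05 ± 0.13. The other readings of these 7 genes are increases of 2.25 to 2.35.

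The same comparison can be made without LIF, since CpG-A and medium (n = 3 and 2) share no array with it. CpG-A changed 3300 genes there (16.7% of those tested, with 4.91% higher and 7.15% lower), and 2128 when medium replicate 1 was left out. In common were 2269 genes, 66.2% of the calls made with LIF and 68.8% of those made without it. Of the 1279 that could be read in both, 1276 (99.8%) had the same direction, 566 higher and 710 lower. The 3 that did not, named here after their values were seen, were Ccl4, Ifna12 and Toporsl. Ccl4, an inflammatory chemokine, read 0.73 ± 0.24 with LIF and -0.83 ± 0.27 without it. Its interaction was open at 1.55 and was not called (adjusted p = 0.199).

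**Figure D4:**
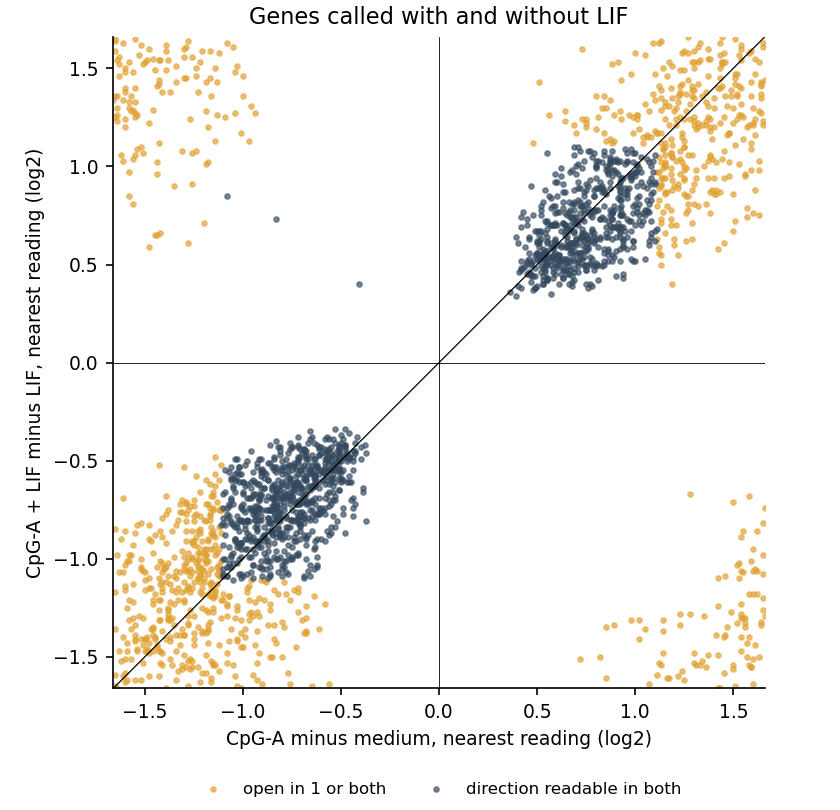
Nearest reading of CpG-A + LIF minus LIF (log2, vertical axis) against that of CpG-A minus medium (log2, horizontal axis) for the 2269 genes called in both, with the diagonal drawn. Of the 1279 genes readable in both, 1276 lie in the quadrants of equal direction, and points in the opposite corners are open genes whose readings fall on either side of the border.

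Proteasome and unfolded protein response genes had close counts with and without LIF. Without LIF 23 of 25 proteasome genes were called with a median of 0.75, beside 23 and 0.73 with LIF. Of the 24 unfolded protein response genes 20 were called without LIF, beside 18 with it, at medians of 0.71 and 0.70. Hspa5 read 0.98 without LIF and 0.96 with it, and the difference was -0.02 ± 0.16. Tlr9 read 0.93 and 0.77, a difference of -0.16 ± 0.17, and Siglech read -0.58 and -0.74.

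The difference of the responses, tested as an interaction of LIF with CpG-A and folded to its own nearest reading, was called for 2 of 19751 genes (0.0101%), Socs3 and Thra. This count depended on the processing. It was 278 when the interaction was not folded again, 0 when only the arrays of the 4 groups were fitted, and 36 with the circle of each gene opened at its widest gap. An unadjusted p under 0.05 was found for 1382 genes. The 95% interval of a typical interaction reached 0.49 to either side, without adjustment for the number of genes. A call after adjustment needed a larger difference. The nearest readings of the 2 called genes were -1.65 and 1.43, and Ifnab at 1.58 ± 0.35 or -1.74 was not called (adjusted p = 0.169). Differences well above 0.49 may therefore have been missed with these arrays. Among the 2269 genes called in both responses the median size of the interaction was 0.18, and 87.9% lay under 0.5. Over all genes the median size was also 0.18, and the median SE of the interaction was 0.23. The size in the shared genes is thus that of any gene and does not show that they respond more alike. Of the 1161 genes called only with LIF, 436 had an unadjusted p under 0.05 without it. The median reading of all 1161 was 0.62 in size with LIF and 0.31 without. Of the 1031 called only without LIF, 395 had such a p with it, and the medians of all 1031 were 0.28 with LIF and 0.66 without. Choosing genes called on 1 side only makes the reading larger on that side, so these gaps are no measure of an effect of LIF.

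Socs3 (probe set 10393449) lay at 1.78 and 1.21 in the medium arrays, at 0.12, -0.21 and 0.08 with LIF, at -0.04, 0.18 and 0.18 with CpG-A, and at 0.57, 0.20 and 0.09 with both. The medium arrays stood apart from all the others, which lay between -0.21 and 0.57. CpG-A read 0.29 ± 0.16 with LIF (not called) and -1.38 or 1.94 without it (adjusted p = 3.24e-05), and the interaction was -1.65 ± 0.24 or 1.67 (adjusted p = 0.0245). LIF against medium, which shares these arrays, read -1.49 or 1.83. Thra, a thyroid hormone receptor, lay at 1.01 and 1.24 in medium, at 0.22, -0.11 and -0.11 with LIF, at -0.38, -0.53 and -0.48 with CpG-A, and at -0.32, -0.15 and -0.00 with both. CpG-A read -0.16 ± 0.13 with LIF (not called) and -1.59 or 1.73 without it, and the interaction was 1.43 ± 0.19 or -1.89 (adjusted p = 0.014). In both genes the groups that differ from the rest are the 2 medium arrays. Their calls depended on single arrays. Socs3 was lost without medium replicate 1 (adjusted p = 0.147) or 3 (0.229), without replicate 1 or 3 of CpG-A (0.103 and 0.084), without LIF replicate 1 (0.0761), and without any of the CpG-A + LIF replicates (0.0753 to 0.112). Thra was lost without medium replicate 3 (adjusted p = 0.17), CpG-A replicate 3 (0.0621) or CpG-A + LIF replicate 2 or 3 (0.0564 and 0.0696). Over the arrays left out in turn, 0 to 27 genes were called, the most without LIF replicate 2.

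The next genes by p just missed the threshold, each at an adjusted p of 0.0586. Olfm1, a secreted glycoprotein, lay at 1.66 and 1.26 in medium, between -0.49 and 0.34 with LIF, and at 0.97 to 1.31 in the CpG-A and CpG-A + LIF arrays. Cdh1, the adhesion protein E-cadherin, lay at -0.94 and -0.92 in medium, at -0.04, -0.01 and 0.05 with LIF, at -0.91, -0.70 and -0.65 with CpG-A and at -1.26 to -1.0 with both. In these 2 genes the LIF arrays stood apart, and CpG-A + LIF lay near CpG-A. For Il13ra1, a chain of the interleukin-13 receptor, medium lay at -1.58 and -1.69 and every other array between -0.52 and 0.25. For Lilr4b, an inhibitory receptor, medium lay at -1.45 and -1.63 and every other array of these groups between -0.15 and 0.69.

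**Figure D5:**
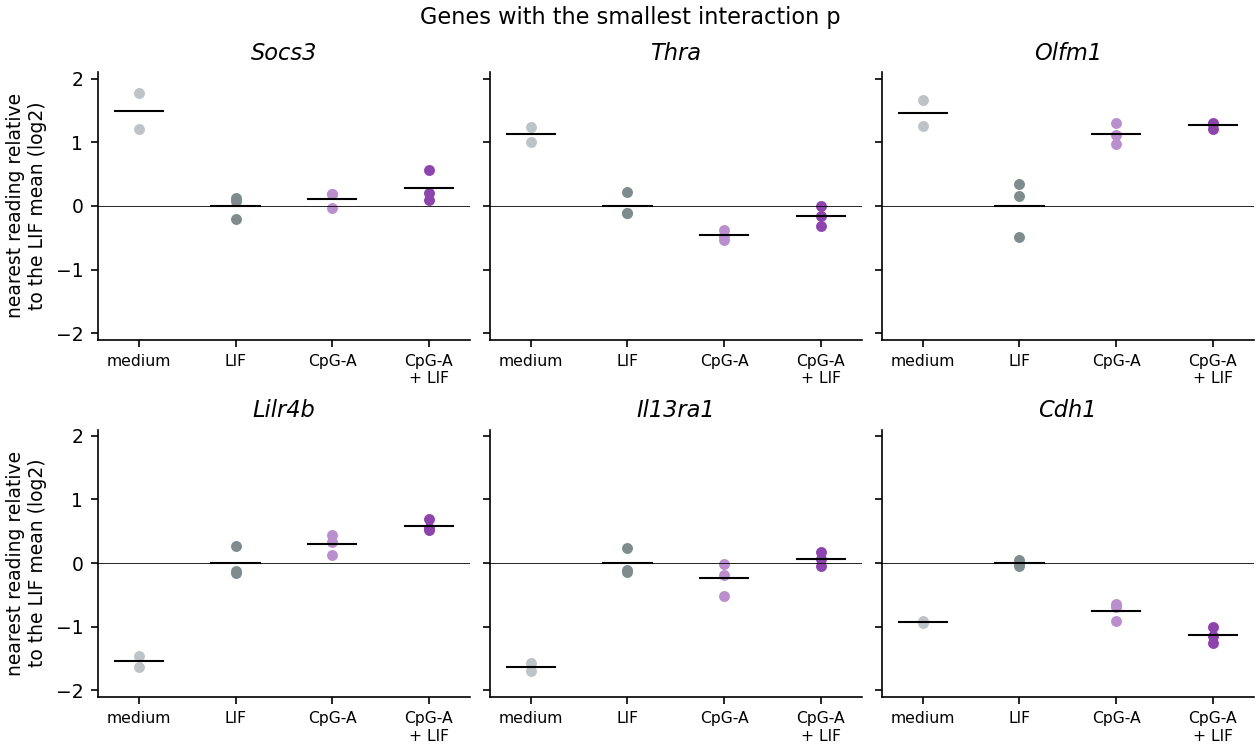
Nearest reading of each array relative to the LIF mean (log2, vertical axis) in medium (2 arrays), LIF, CpG-A and CpG-A + LIF (3 arrays each) for the 6 genes with the smallest interaction p, with bars at group means. Medium stands apart in Socs3 and Thra (1.01 to 1.78), and the LIF arrays stand apart in Olfm1 and Cdh1.

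Against the other class of oligonucleotide, the response had its own profile. CpG-B + LIF against LIF changed 5025 genes (25.4%), beside 3430 for CpG-A + LIF, and the same LIF arrays served as control for both. The direct comparison of CpG-A + LIF with CpG-B + LIF, in which LIF alone does not enter, called 3339 genes (16.9%), 1112 of them higher with CpG-A (5.63%), 1581 lower (8%) and 646 open (3.27%). Of the 3430 genes of the CpG-A response 1231 (35.9%) differed between the oligonucleotides, 506 higher with CpG-A, 468 lower and 257 open.

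Antiviral genes were higher with CpG-A. Of 37 measured members 21 differed in the direct comparison, 19 higher, 0 lower and 2 open. Over all genes 16.9% differed and 5.63% were higher. Of the 37 readings 36 lay above 0, with a median of 0.52 against 0.05 over all genes. The direct comparison could be read for genes whose response to either oligonucleotide was open. Stat2 was 0.92 ± 0.13 higher with CpG-A (adjusted p = 5.61e-05), Ifi27l2a, an interferon-induced mitochondrial protein, 0.66 ± 0.12 higher and Dtx3l 0.52 ± 0.13 higher. Irf7 was 0.65 ± 0.19 higher (adjusted p = 0.0237) and Cxcl10 was open at 1.41 ± 0.20 or -1.91.

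Lineage genes also differed between the oligonucleotides, beside 16.9% of all genes called. Of 17 surface and effector genes 13 were called, 6 higher with CpG-A and 7 open, and of 15 transcription factors 8 were called, 5 higher, 2 lower and 1 open. Tcf4 lay at -0.24, -0.46 and -0.21 with CpG-A and LIF and at -1.57, -1.45 and -1.47 with CpG-B and LIF, a direct difference of 1.20 ± 0.11 or -2.13 (adjusted p = 2.66e-06). Spib was 0.94 ± 0.15 higher with CpG-A. Lifr read 0.99 with CpG-A and -1.04 with CpG-B against the same LIF arrays, and the direct difference was open at -1.29 ± 0.11 or 2.03. Stat3 was 0.59 ± 0.11 higher with CpG-A (adjusted p = 6.57e-04). Ccr7 lay at 0.04, -0.35 and -0.44 with CpG-A and at 1.19, 1.11 and 1.00 with CpG-B, a difference of -1.35 ± 0.18 or 1.97.

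Ribosome biogenesis set the oligonucleotides apart for every measured member. All 24 genes, which build ribosomes in the nucleolus, differed in the direct comparison, 6 of them lower with CpG-A and 18 open, against 16.9% of all genes called. In the CpG-A response itself 6 of the 24 were called, and 3 without LIF replicate 2 or without CpG-A + LIF replicate 1. Gar1, a subunit of the small nucleolar particles that modify ribosomal RNA, lay at -0.07, 0.06 and 0.13 with CpG-A and LIF and at 1.38, 1.31 and 1.47 with CpG-B and LIF. Its difference was -1.34 ± 0.11 or 1.98 (adjusted p = 1.41e-06). Utp4, a processome subunit, was -1.05 ± 0.17 with CpG-A relative to CpG-B. Ipo5, a nuclear import receptor, and Fasn, the fatty acid synthase, also lay near 0 with CpG-A (-0.11 and -0.18, not called) and differed from CpG-B by -1.65 ± 0.12 or 1.67 and by -1.41 ± 0.11 or 1.91.

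Few proteasome genes differed between the oligonucleotides. Over all genes the direct comparison called 16.9%, with 8% lower with CpG-A, which is the background for the counts here. Of the 25 genes 2 were called, both lower with CpG-A, with a median of -0.15 and a range from -0.57 to 0.22. Psmd2 differed by -0.03 ± 0.13 and Nploc4 by 0.00 ± 0.11. Of the unfolded protein response genes 9 of 24 differed, 8 lower with CpG-A and 1 higher, and Hspa5 differed by -0.28 ± 0.11 (adjusted p = 0.0771). Of the 33 cell cycle genes 18 differed, 7 lower with CpG-A and 11 open. Among 27 respiratory chain genes 7 differed, all lower with CpG-A, and among 19 cholesterol synthesis genes 0 were called by limma.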

How the data were processed

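The authors deposited 1 table of 24680 probe sets on 17 arrays, and the submitters' processing notes name RMA, with no version. Affymetrix labelling followed the maker's protocol, per the labels. The deposited values are the digits of linear intensities with the decimal mark lost: of 419560 cells 1 kept its mark, and 90.0% have 10 digits. All columns were assigned to samples by title. Platform annotation gave 21354 probe sets 1 symbol, 1275 several and 2051 none, and the last 2 kinds were not used. A gene was represented by its probe set with the most listed accessions (893 genes had more than 1), and no gene was filtered out.

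Log2 digits were taken modulo 3.32, each array was placed nearest to its group's circular mean, and each contrast was folded to its nearest reading. Group means of all 17 arrays were fitted with limma 3.58.1 (R 4.3.3). Variances were moderated on 11 residual degrees of freedom, and p-values were adjusted by Benjamini-Hochberg for the 19751 genes. The procedure was tested on simulated data. The members and lists were chosen with earlier results of these data known. Named genes were, among called genes without overlap between arrays, the 10 increases, 10 decreases and 6 open genes of smallest p, up to 4 members of each list, 16 chosen genes whatever their values, and the 6 genes of smallest p in the interaction and in the comparison of oligonucleotides. Further list members are given as examples chosen after their values were seen. Arrays give no counting depth, and their number limits the precision. Promoter sequences are RefSeq's (GRCm38.p6). Alternatives covered the arrays fitted, a replicate block, centring, the choice of probe set, genes of wide spread, the place where the circle is opened, the limit on direction, folding of the interaction, and each array left out.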

Additional observations from a re-analysis of the deposited data

Results flagged for a closer look

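The response to CpG-A differed with LIF for 2 genes by a test of the difference itself. The number of such genes was 0 when only the arrays of the 4 groups were fitted and 278 when the interaction was not folded again. For Socs3, the feedback inhibitor of STAT3 signalling, the interaction was -1.65 or 1.67. For Thra, a thyroid hormone receptor, it was 1.43 or -1.89. Both calls were lost in several fits with 1 array left out, and in both genes the 2 medium arrays stand apart.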

How the results depend on the processing

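The response to CpG-A in LIF-treated cells kept its size, with 2775 to 3723 genes called over 8 other settings and 2824 to 3115 without 1 array. Of 129 named genes 110 kept their call under all 14 settings tried, and 19 did not. Of the named genes called higher or lower, 0 turned to the opposite direction. Open genes were compared by the size of the reading only, so a turn could not be counted for them. With the circle opened at the widest gap, open genes such as Nfkb2 (-1.66 to 1.66) and Tnf (-1.38 to 1.95) changed sign. Over all genes, 2644 of the 2670 that could be read kept their direction when the circle was opened at the widest gap, as did 616 of the 760 nearest readings of open genes. The number of open genes was 482 without genes of wide group spread (16727 genes kept), 1486 with a limit on direction of 0.83 and 0 with no limit. The interaction, 2 genes, was called for 0 genes with only the arrays of the 4 groups (1302 at an unadjusted p under 0.05), 1 over genes with 1 probe set, 19 without genes of wide spread, 8 with arrays centred on their median, 36 with the circle opened at the widest gap, 278 when not folded again, and 0 to 27 without 1 array. CpG-A against medium gave 2128 to 2941 calls without 1 array. The cause of these shifts was not tested, apart from the folding and the limit, which act by construction.

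With the replicate number as a block, 6 genes were called in the interaction, 4 neutrophil markers in place of 2 and 1 T cell marker in place of 0, and the other counts stayed within 1.5 times. Over 40 pairs of arrays of the same number the correlation of deviations ran from -0.08 to 0.243 with a median of 0.016, and 6 pairs were over 0.1. For LIF and CpG-A + LIF it ran from -0.028 to 0.024, and the numbers were not taken as pairs. For CpG-B and CpG-B + LIF, which are not compared here, all 3 pairs were over 0.1 (0.126, 0.243 and 0.143). For the 760 open genes the lost decimal marks leave the direction unread.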
